A study of Mus musculus with 8 samples.

Results

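The cells described here were the myeloid cells with high MHC class II expression among CD11b-sorted cells of the mouse brain. A cell was taken when Cd74, H2-Aa, H2-Ab1 and H2-Eb1 together made up at least 0.5% of its gene UMIs (unique molecular identifiers, each standing for 1 captured transcript), when it held no UMI of the lymphocyte genes Cd79a, Ms4a1 and Cd3e, and when fewer than 3 of the border macrophage genes Mrc1, Cd163, F13a1 and Cbr2 were detected. Of 24143 cells with at least 500 detected genes, at most 10% mitochondrial UMIs and no hashtag doublet call, 435 met this rule (1.80%). They are called class II high cells below, and the remaining 23708 cells are called the other cells.

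All animals, controls included, were female mice that carried the GFP-M transgene, Cx3cr1-CreERT2fl/fl, in which the Cx3cr1 promoter drives an inducible Cre recombinase, and the reporter Rosa26-tdTomatotg/tg. Mice of 3 or 12 months received peanut butter alone, or BLZ-945 at 200 mg/kg per day in peanut butter for 14 or 21 days followed by 7 days without treatment. BLZ-945 blocks the CSF1 receptor, whose signal microglia need to survive. Each of 4 libraries pooled 4 hashtag-labelled animals, namely a young control, an old control, a young repopulated and an old repopulated mouse. No label tied a hashtag to a condition, so the 4 libraries were treated as replicates of 1 mixed population and age and treatment were not compared. Brains had been kept in 30% sucrose and frozen before dissociation and sorting. The labels call the sorted cells microglia. The defining microglia genes P2ry12 and Tmem119 were detected in 93.8% and 91.5% of the other cells. Cells picked by genes of other types also held UMIs of both. In 109 neutrophil-marked cells (at least 4 of S100a8, S100a9, Retnlg, Csf3r and Cxcr2 detected) the shares were 66.1% and 50.5%. In 269 cells with a Cd3e UMI they were 52.4% and 48.7%. Median depths were 5991 UMIs in the other cells, 5049 in the neutrophil-marked cells and 5944 in the cells with a Cd3e UMI. Whether microglia or doublets are among the cells picked in this way was not tested.

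MHC class II molecules are pairs of alpha and beta chains that display peptides from endocytosed proteins to CD4+ T cells. The invariant chain Cd74 guides the new pairs to the endosome, H2-DM helps to load the peptide there, and the coactivator Ciita switches on the genes of the whole pathway. In the healthy brain parenchyma most microglia express little class II, while dendritic cells, some monocyte-derived cells and a part of the border macrophages of the meninges, vessels and choroid plexus express much more.

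The promoters of several class II genes share a short arrangement of an X box, bound by the RFX complex, and a Y box, bound by NF-Y, to which Ciita docks. The RefSeq promoter sequences (GRCm38.p6, 250 bases before to 50 after the start) of both chain genes of the selection rule that have an entry, H2-Aa and H2-Eb1, and of H2-Oa and H2-Ob, which encode the H2-DM inhibitor H2-O, are given because they show this arrangement in genes that the comparisons below return to. Capitals mark GCAAC and ATTGG, the cores of the X and Y boxes. The genes lie on chromosome 17 within the MHC locus, with windows at chr17:34287774-34288073 (minus strand), chr17:34305617-34305916 (plus), chr17:34092129-34092428 (plus) and chr17:34238655-34238954 (plus).
H2-Aa: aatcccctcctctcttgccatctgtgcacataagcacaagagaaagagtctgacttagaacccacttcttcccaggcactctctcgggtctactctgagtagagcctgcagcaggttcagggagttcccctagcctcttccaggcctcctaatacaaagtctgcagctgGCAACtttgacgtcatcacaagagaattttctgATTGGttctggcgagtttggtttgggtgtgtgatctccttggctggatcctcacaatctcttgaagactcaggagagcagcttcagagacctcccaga
H2-Eb1: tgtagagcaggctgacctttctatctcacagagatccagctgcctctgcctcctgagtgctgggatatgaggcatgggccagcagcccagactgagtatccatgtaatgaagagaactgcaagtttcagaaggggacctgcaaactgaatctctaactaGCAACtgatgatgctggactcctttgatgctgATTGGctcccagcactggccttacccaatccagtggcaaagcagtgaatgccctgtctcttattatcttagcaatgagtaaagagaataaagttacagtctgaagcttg
H2-Oa: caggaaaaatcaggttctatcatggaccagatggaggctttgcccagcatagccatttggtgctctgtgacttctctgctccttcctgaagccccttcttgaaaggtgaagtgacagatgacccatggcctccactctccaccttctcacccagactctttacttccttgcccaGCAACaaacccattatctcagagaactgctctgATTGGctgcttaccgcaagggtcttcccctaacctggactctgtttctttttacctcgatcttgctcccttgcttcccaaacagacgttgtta
H2-Ob: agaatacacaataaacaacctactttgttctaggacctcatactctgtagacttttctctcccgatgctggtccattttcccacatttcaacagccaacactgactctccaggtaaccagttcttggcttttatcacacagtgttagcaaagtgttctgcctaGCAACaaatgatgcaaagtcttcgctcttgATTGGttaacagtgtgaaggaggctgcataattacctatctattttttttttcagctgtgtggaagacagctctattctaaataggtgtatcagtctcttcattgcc
From start to start, ATTGG followed GCAAC by 33 bases in H2-Aa and H2-Oa, by 32 in H2-Eb1 and by 30 in H2-Ob. The GCAAC began at position -81 from the transcription start in H2-Aa and at -91 in H2-Eb1. A search on both strands for GCAAC followed by ATTGG at 15 to 45 bases found the pair in 471 of 32851 promoters of this length (1.43%), while GCAAC alone was in 35.2% and ATTGG alone in 37.4%. Of 14 class II or class II machinery genes with an entry, 5 held the pair: these 4 and H2-Eb2. Letters and spacing were chosen with these sequences in view, and a match is a description of the sequence only.

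The libraries held 2606 to 9699 cells that passed the filters on genes and mitochondrial UMIs, with 5211 to 9733 median UMIs per cell. Of these, 6.94 to 26.0% were hashtag doublets and were left out. Doublets of 2 cells with the same hashtag cannot be shown by hashtags. From the hashtag shares they are expected to make up a further 4.40 to 9.50% of all cells that passed these filters. Their share of the kept cells alone is higher. HTO3 in library 1 (0.283% of hashtag UMIs) and HTO2 in library 4 (0.330%) fell under the 1% minimum, which left 14 animals with calls. Libraries 1 and 2 shared 159 cell barcodes (6.10% of the cells of library 1) and other pairs shared 4 to 21. Of the class II high cells, 3 in library 1 and 1 in library 4 carried a barcode also seen in another library. Without all shared barcodes the mean share below was 1.62% and 532 genes were called against the other cells instead of 540. Library 1 was also the smallest, with 18 class II high cells.

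The rule chose the cells by the 4 class II genes, so their levels are given as a description. Class II UMIs were missing altogether in 63.5% of the cells that passed the other parts of the rule, and 5863 cells held 1 or 2. The class II high cells held a median of 235 class II UMIs, or 3.33% of their transcripts (quartiles 1.43% and 5.37%, highest 12.4%), with a median of 8211 UMIs in all. Around the threshold, 31 cells had 0.4 to 0.5% and 15 cells 0.5 to 0.6%. The lowest cell inside stood at 0.503% and the highest outside at 0.499%. A further 87 cells reached the threshold but carried 3 or more border macrophage genes, and 53 carried a lymphocyte gene.

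**Figure D1:**
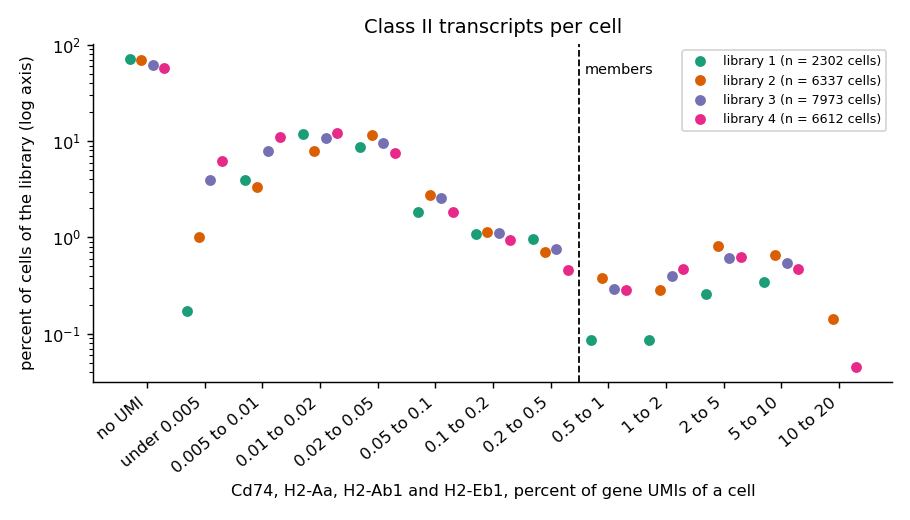
Percent of the cells of each library (y axis, log scale) by the percent of their UMIs that came from the 4 class II genes (x axis, bins of unequal width), for cells that passed the other parts of the rule; the dashed line is the 0.5% threshold. Most cells had no class II UMI, and right of the line the 435 class II high cells spread around their median of 3.33%.

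Cd74 stood at 19913, 15701, 12619 and 12191 CPM (the usual scaling of a gene's UMIs by all gene UMIs of the summed cells) in the class II high cells of libraries 1 to 4, and at 141, 147, 90.8 and 103 CPM in the other cells. H2-Aa, an alpha chain gene, had 9152, 6448, 5790.0 and 4961 CPM against 37.1, 33.7, 17.9 and 25.1 CPM. For the beta chain gene H2-Ab1 the means over libraries were 5810.4 ± 1229 CPM (SD, n = 4) and 44.3 ± 6.18 CPM, and for the beta chain gene H2-Eb1 5676 ± 1090.5 CPM and 23.3 ± 6.77 CPM. The 4 genes kept the same order of libraries in the class II high cells, with library 1 highest and library 4 lowest. The other cells include border macrophages and cells with a lymphocyte gene. Over the 14 animals the 4 genes summed to 78.7 to 540 CPM in the other cells. Without border macrophages and cells with a lymphocyte gene the range was 63.9 to 185 CPM.

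Class II high cells made up 0.762% of the cells in library 1 (18 of 2363, exact 95% interval 0.452 to 1.20%), 2.21% in library 2 (145 of 6547, 1.87 to 2.60%), 1.79% in library 3 (147 of 8206, 1.52 to 2.10%) and 1.78% in library 4 (125 of 7027, 1.48 to 2.12%). The mean was 1.64% ± 0.617 (SD, n = 4). The intervals, which cover counting error only, overlapped among libraries 2, 3 and 4, and that of library 1 lay below them. With doublets called on all 4 hashtags, library 4 had 0.684% (28 of 4092, 0.455 to 0.987%), below libraries 2 and 3. The share depended on the border macrophage genes in the rule: 199 of the 435 cells had none of the 4 genes detected, 171 had 1 and 65 had 2, and with only the first kept the mean fell to 0.760% ± 0.333.

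In libraries 2, 3 and 4 single animals differed more than the 4 libraries did. In library 2, HTO4 had 7.66% (82 of 1071 cells, 6.14 to 9.41%) and the other 3 animals had 0.876 to 1.56%. In library 4, HTO1 had 6.17% (92 of 1490) while HTO3 had 0.553% (15 of 2713) and HTO4 1.16% (12 of 1037). In library 3, HTO2 had 4.56% (90 of 1974) and HTO1 2.32% (39 of 1682), against 0.507% in HTO3 and 0.717% in HTO4. The 3 animals of library 1 had 0.454 to 1.04%.

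Over the 14 animals the share ran from 0.454 to 7.66% with a median of 1.10%, and the 4 animals over 2% came under 3 different hashtags. The animal with 6.17% in library 4 also had the highest share of border macrophages, at 12.1% (180 of 1490), whereas the animal with 7.66% in library 2 had 1.31% (14 of 1071). Across the 14 animals the share of class II high cells and the share of border macrophages had a Spearman rho of 0.56, which is given as a description because the animals share libraries and depth.

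**Figure D2:**
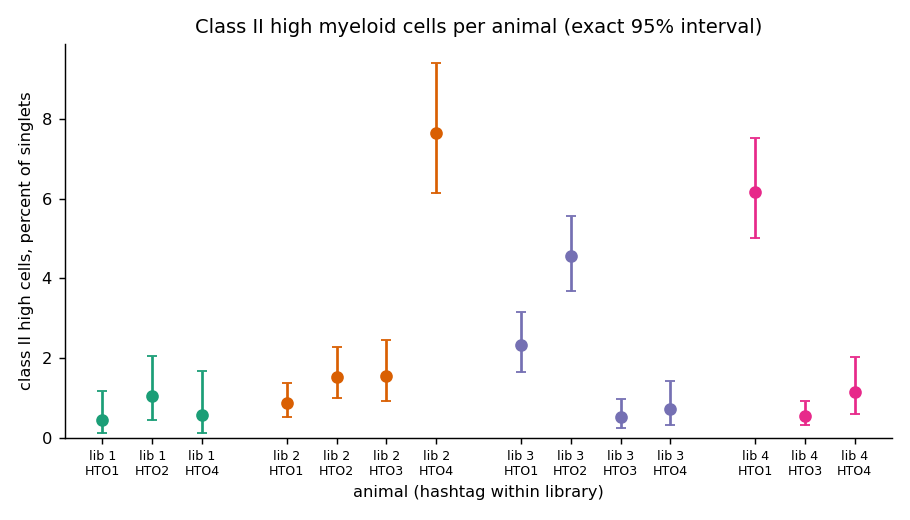
Class II high cells as a percent of the hashtag singlets of each animal (y axis), grouped by library (colour), with exact 95% binomial intervals. Of the 14 animals 4, in libraries 2, 3 and 4, lie over 2%, and the other 10 lie at or below 1.56%.

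To see what else set these cells apart, summed UMIs of the class II high cells were compared with those of the other cells of the same library, leaving out the 11 genes of the rule (edgeR quasi-likelihood test with the library as a block). A gene was called at a Benjamini-Hochberg adjusted p under 0.05 and at least a 2-fold difference. The class II high cells were higher in 471 of 11668 genes tested (4.04%) and lower in 69 (0.591%), which makes 4.63% in either direction. The lower count was the less stable: it was 35 without library 2, 259 without library 4, 213 with all 4 hashtags in the doublet call, 161 at a class II threshold of 1% and 177 in cells that lacked all 4 border macrophage genes, while the higher count ran from 331 to 545 over the alternatives. Fold changes below are log2 values of class II high cells over other cells with their standard errors (SE). The replicates are pooled libraries, so p-values measure the spread between these 4 pools. In such sums more cells of a type and more RNA per cell cannot be told apart.

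The class II high cells and the other cells of a library came from its animals in different shares: HTO4 gave 82 of the 145 class II high cells of library 2, and HTO1 92 of the 125 of library 4. Differences between animals therefore enter the library sums. As an alternative chosen after seeing the data, UMIs were summed per animal and tested with the animal as the block, in the 12 animals with at least 5 cells in each group. This called 409 of 9833 genes higher (4.16%) and 285 lower (2.90%), or 7.06% in either direction, and 367 of these 694 genes were among the 540 called per library. Within animals 4 class II machinery genes, 6 of 6 shared and 6 of 7 type 2 dendritic cell genes, 5 of 9 monocyte genes and 10 of 13 type I interferon genes were called higher, and lists or genes that differed are given below.

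The coactivator and the peptide loaders were higher, a direction that choosing cells by class II genes favours. Ciita, the class II coactivator, stood at 142, 53.4, 51.6 and 55.7 CPM in libraries 1 to 4 of the class II high cells and at 0.254, 0.832, 0.239 and 0.247 CPM in the other cells (log2 7.59, SE 0.40, edgeR adjusted p = 4.82e-06). The 2 sets of values lay far apart in every library. At least 1 Ciita UMI was seen in 32.2% of class II high cells (140 of 435), in 0.270% of other cells and in 0 of 109 neutrophil-marked cells, with median depths of 8211, 5991 and 5049 UMIs. Thinned to 2000 UMIs per cell, which left out 17 class II high cells, the shares were 11.2% and 0.0728%.

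H2-DMb1, a chain of the peptide loader, had 743, 472, 392 and 352 CPM against 117, 79.8, 72.6 and 87.6 CPM (log2 2.62, SE 0.21, edgeR adjusted p = 5.34e-05). H2-DMa (log2 1.45), which encodes its partner chain, and H2-DMb2 (log2 2.71), a second beta chain gene, were also called. H2-DMb1 and H2-DMb2 are closely similar neighbouring genes whose reads may be split between them. Of 13 tested genes of the class II machinery outside the rule these 4 were called higher and none lower (median log2 0.23, against -0.02 over all genes). H2-Oa, whose promoter is shown above, had 96.9, 63.4, 53.2 and 49.0 CPM against 52.7, 37.2, 28.0 and 39.8 CPM, higher in each library but short of 2-fold (log2 0.89, edgeR adjusted p = 0.0194; 1.10 and called without library 4). H2-Ob did not pass (log2 0.62, edgeR adjusted p = 0.197). The lysosomal cysteine proteases that trim the invariant chain and antigens were not called: Ctss had 2965 to 5274 CPM against 4156 to 8717 CPM (log2 -0.37), and Lgmn 727 to 1515 CPM against 2138 to 2571 CPM (log2 -0.93). The values of Lgmn did not overlap, with an edgeR adjusted p of 0.0742, and it was called lower without library 4, with library totals alone, at a class II threshold of 1%, in cells that lacked all 4 border macrophage genes and with sums per animal (log2 -1.10 to -1.03).

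Genes shared by dendritic cells had the highest median of the lists. Of 9 tested, 9 were called higher (median log2 5.25). Napsa, an aspartic protease, had 233, 193, 160.5 and 103 CPM in class II high cells and 5.14, 8.75, 6.06 and 1.97 CPM in other cells (log2 5.25, SE 0.24, edgeR adjusted p = 4.70e-06). Flt3, the receptor for the growth factor of dendritic cells, had 77.6, 10.7, 11.5 and 7.38 CPM against 0.349 to 0.508 CPM (log2 5.39, SE 0.54), and library 1 stood far above the other 3. Zbtb46, a transcription factor of the conventional dendritic cell lineage, was low but higher in every library (4.69 to 9.82 CPM against 0.680 to 1.46 CPM, log2 3.03, edgeR adjusted p = 0.00363). Without library 3, 8 of the 9 genes were called, and Zbtb46 was the one lost.

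Of the genes of type 2 conventional dendritic cells, 7 of 9 were called higher. Cd209a, a C-type lectin, had 187, 99.0, 146 and 85.2 CPM against 3.87, 1.36, 1.76 and 1.42 CPM (log2 6.23, SE 0.21, edgeR adjusted p = 3.21e-07). Its UMIs came from few cells, 42 of 435 (9.66%), against 0.557% of other cells. Mgl2, another lectin, had 109 to 394 CPM against 2.51 to 4.31 CPM (log2 6.51). The chemokine gene Ccl17 had 84.0, 7.12, 125 and 10.7 CPM against at most 0.151 CPM (log2 10.00, SE 0.84), resting on 13, 10, 153 and 16 UMIs. Of the type 1 genes 6 of 10 were higher (3 without library 1, 4 without library 2 or without the block), among them the dead-cell receptor Clec9a (8.19 to 19.4 CPM against 0.0514 to 0.381 CPM, on 3 to 17 UMIs a library) and the chemokine receptor Xcr1 (6.55 to 116 CPM against 0.126 to 0.401 CPM). With sums per animal 0 of the 6 type 1 genes that could be tested were called by edgeR, and Clec9a, Xcr1, Ccl17 and Flt3 were too low to test. Of 7 tested genes of migratory dendritic cells 0 were called by edgeR, where 3 higher and 1 lower had an unadjusted p under 0.05 and both DESeq2 and the sums per animal called 1 lower. Without library 4 edgeR called 1 migratory gene higher and 1 lower, and with no filter on low counts 1 lower. Of 4 genes of plasmacytoid dendritic cells 0 were called by edgeR or DESeq2, with 1 higher at an unadjusted p under 0.05. Without library 4, and also with no filter on low counts, edgeR called 1 plasmacytoid gene higher.

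Some monocyte genes were higher. Ccr2, the chemokine receptor that brings monocytes into tissue, had 536, 523, 325 and 262 CPM against 4.89, 19.0, 4.72 and 5.97 CPM (log2 5.93, SE 0.34, edgeR adjusted p = 6.18e-06). Its UMIs were found in 63.0% of class II high cells (274 of 435), 2.98% of other cells and 0.917% of the neutrophil-marked cells. After thinning to 2000 UMIs the first 2 shares were 42.3% and 1.20%. Of 9 tested monocyte genes 5 were called higher, with Ms4a4c (126 to 291 CPM against 17.9 to 38.9 CPM, log2 3.21) and Plac8 (68.4 to 585 CPM against 13.1 to 44.0 CPM, log2 2.99) beside Ccr2. Ly6c2, a surface protein of classical monocytes, varied from 0 to 223 CPM and was not called (edgeR adjusted p = 0.191), but was called without library 4. Fn1 was lower per library (0, 23.5, 84.3 and 206 CPM against 5.14, 56.4, 263 and 672 CPM, log2 -1.41), but within animals it was lower in 7 of 12 and not called (log2 -0.15, edgeR adjusted p = 0.836). Without the library block 3 monocyte genes were called higher and 0 lower, with S100a4 and Fn1 among the calls lost.

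Microglia genes had lower values, but to a degree that split the libraries. P2ry12, the purinergic receptor, had 233 and 135 CPM in the class II high cells of libraries 1 and 2, 868 and 1263 CPM in libraries 3 and 4, and 1328 to 2581 CPM in the other cells. The groups did not overlap, yet the gene did not pass the test (log2 -1.66, SE 0.54, edgeR adjusted p = 0.127). Of 14 microglia genes 2 were called lower, Olfml3 (181, 186, 541 and 608 CPM against 1031 to 1214 CPM, log2 -1.52, SE 0.31) and Fcrls (155, 158, 435 and 576 CPM against 740.4 to 1164 CPM, log2 -1.39, SE 0.33). The median of the list was -1.40.

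The calls of microglia genes turned on the library. Without library 4, 11 of the 14 were called lower, and without library 1 or library 2 the count was 0. With DESeq2 it was 11, P2ry12 among them, and it was 11 in cells that lacked all 4 border macrophage genes. The summed level of the list was 5565 and 5006 CPM in the class II high cells of libraries 1 and 2, and 12601 and 15374 CPM in libraries 3 and 4. The other cells had 28639, 20602, 18488 and 19234 CPM.

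The animals differed in the same gene. The other cells of the animals that gave most class II high cells were set side by side. In them P2ry12 had 361 CPM in library 2 (HTO4), 2605 CPM in library 3 (HTO2) and 3121 CPM in library 4 (HTO1). A step between library 2 and libraries 3 and 4 was thus also present there. Library 1 did not share it: HTO2, with 8 class II high cells, had 3048 CPM in its other cells. Within animals P2ry12 was lower in the class II high cells of 12 of 12 (log2 -1.71, SE 0.25, edgeR adjusted p = 1.56e-05), and 11 of the 14 microglia genes were called lower.

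P2ry12 was found in 62.3% of class II high cells, at a median depth of 8211 UMIs. That share lies between those of the cells with a Cd3e UMI and the neutrophil-marked cells given above. A P2ry12 UMI alone therefore does not set a class II high cell apart from cells picked by genes of other types.

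Border macrophage genes were mixed, and the rule itself removed cells with 3 or more of 4 such genes. Ms4a7, a membrane protein of border and other non-parenchymal macrophages, had 136, 247, 208 and 208 CPM against 28.6, 39.0, 17.1 and 25.3 CPM (log2 3.14, SE 0.22, edgeR adjusted p = 2.20e-05). The lectin Clec12a was higher as well (199 to 282 CPM against 7.94 to 43.6 CPM, log2 4.06). Lyve1, the hyaluronan receptor of perivascular and meningeal macrophages, was at 0 to 2.14 CPM against 3.58 to 10.4 CPM (log2 -2.65, edgeR adjusted p = 0.0387), a call lost without library 1, 3 or 4 and without the block. Stab1 and Pf4 were not called (log2 -0.08 and 0.75). The sign of Pf4, a platelet chemokine also made by border macrophages, depended on the rule: with only cells that lacked all 4 border genes it was -1.36 and called (edgeR adjusted p = 0.0264).

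Some response genes were higher. Of 13 type I interferon response genes 9 were called higher (median log2 1.27), 5 without library 1 and 4 without library 3. Irf7, a transcription factor of this response, had 207, 127, 218 and 99.3 CPM against 53.1, 64.9, 34.3 and 32.4 CPM (log2 1.99, SE 0.24, edgeR adjusted p = 7.92e-04). Ifitm3, an antiviral membrane protein, had 874 to 1913 CPM against 308 to 601 CPM (log2 1.96). Of 13 interferon gamma response genes 3 were higher, among them Gbp2 (log2 1.58), and without library 3 the count was 0. Of 13 genes of class I presentation 4 were called, including the peptide transporter gene Tap1 (61.7 to 116 CPM against 39.5 to 56.8 CPM, log2 1.05, with values from 0.90 to 0.99 under 5 alternatives that ended the call). The count of this list was 0 without library 1, 2 without library 2 or with sums per animal, and 1 without library 3.

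Immediate early genes, which respond within minutes to stimulation and to tissue dissociation, were higher in 6 of 10 cases. Fos had 2540.1, 1415, 2002 and 2065 CPM against 466 to 532 CPM (log2 2.18, SE 0.24, edgeR adjusted p = 4.16e-04), and the phosphatase gene Dusp1 had 847 to 1148 CPM against 202 to 315 CPM (log2 2.16). In class II high cells without any border macrophage gene 2 of the 10 were called, and the interferon count fell from 9 to 5 of 13. The part that dissociation plays in these values was not tested.

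Il1b, a pro-inflammatory cytokine, had 620.5, 337, 562 and 227 CPM against 52.0, 57.2, 89.8 and 46.4 CPM (log2 2.95, SE 0.25, edgeR adjusted p = 8.13e-05). Its relative Il1a went the other way, with 6.46 to 75.1 CPM against 96.4 to 133 CPM (log2 -1.43, not called without library 3). Among 14 inflammatory genes these and the chemokine Cxcl16 (higher) were called. Apoe, the lipid carrier that heads the disease-associated microglia genes, had 9783 to 13136 CPM against 3191 to 6067 CPM (log2 1.52, not called without library 1 or library 3). Within animals it was called (log2 1.74, SE 0.35, edgeR adjusted p = 6.43e-04), but by amounts that varied: 22959 CPM against 2065 CPM in HTO1 of library 2, 5877 CPM against 5782 CPM in HTO3 of library 3, and in HTO3 of library 2 the reverse, 8230 CPM against 16124 CPM. It was also lower in HTO4 of library 1 (2632 CPM against 13385 CPM), an animal with only 3 class II high cells that was not in the test. Lgals3, a galectin, had 240.1 to 726 CPM against 21.9 to 121 CPM (log2 2.79). Ctsd, a lysosomal protease of the same list, was lower (1196, 1224, 2341 and 3943 CPM against 5159.8 to 6774 CPM, log2 -1.42). Leaving out library 1, 2 or 3, or the block, ended its call. Of 13 cell cycle genes 0 were called by edgeR or DESeq2, and 0 had an unadjusted p under 0.05, with a spread in Top2a, a topoisomerase of dividing cells, from 10.7 CPM in library 4 to 183 CPM in library 2.

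**Figure D3:**
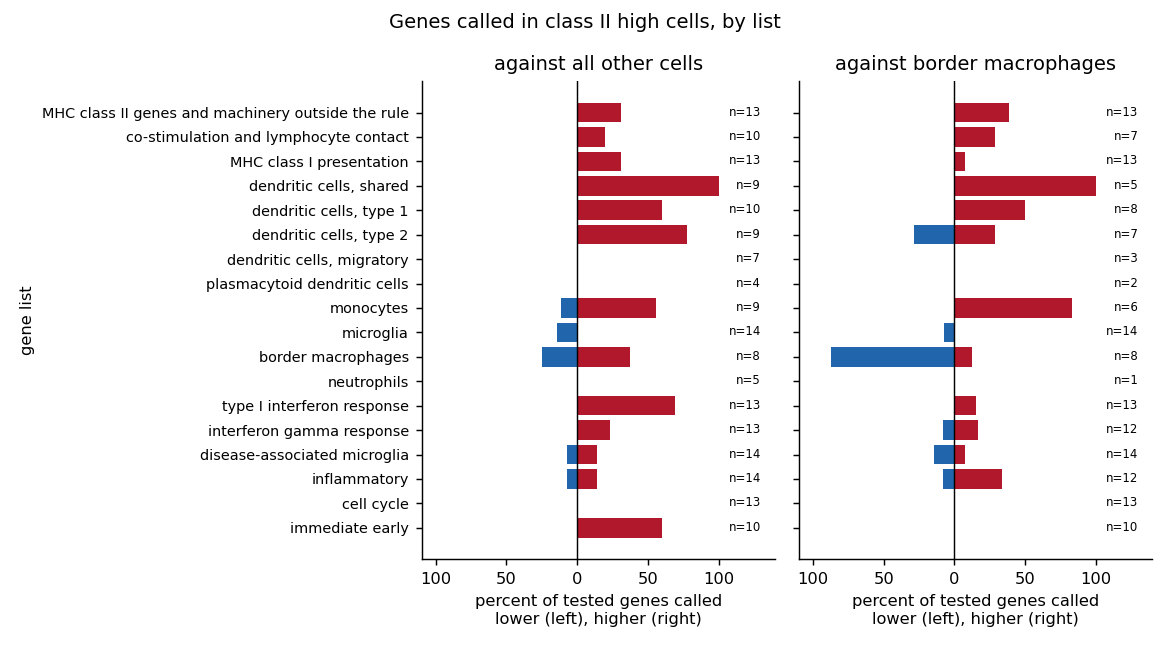
Percent of the tested genes of each list that were called higher (red, right) or lower (blue, left) in class II high cells, against all other cells and against border macrophages, with the number tested at the right. The shared and type 1 dendritic cell lists have only higher calls in both panels, type 2 has both directions against border macrophages, and the migratory and plasmacytoid lists have 0 calls by edgeR. Immediate early genes have calls only against the other cells.

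Outside the lists, the genes with the largest differences and at least 50 CPM in the higher group were, on the higher side, Clec4b1, Slamf7 and Olfm1. Clec4b1, a lectin of dendritic cells, had 60.4 to 103 CPM against 0.0634 to 0.857 CPM (log2 7.58, SE 0.39), and Slamf7, a receptor of the SLAM family, 73.8 to 181 CPM against 0.932 to 2.45 CPM (log2 6.17). Olfm1, an olfactomedin family gene best known in neurons, had 42.2 to 116 CPM against 1.10 to 3.73 CPM (log2 5.26). In the other direction Syngr1 (84.0, 84.0, 191 and 217 CPM against 420.0 to 571 CPM, log2 -1.63) and Gpr84, a receptor for medium-chain fatty acids (6.46 to 47.6 CPM against 106 to 148 CPM, log2 -1.57), were lower. The osteoclast protease Ctsk had 0 to 2.14 CPM against 2.41, 198, 33.1 and 2.64 CPM. Its level in the other cells was set by libraries 2 and 3, and its call was lost without the block and with DESeq2.

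Defining T cell genes were near 0 in the class II high cells (Cd3d 0.712 CPM in library 2 and 0 elsewhere, Trbc2 1.34 CPM in library 4 and 0 elsewhere), which the exclusion of Cd3e cells helps to set. The neuron genes summed to 0 to 1.64 CPM. The B cell gene Ighm, an immunoglobulin heavy chain, had 168 to 290.4 CPM in class II high cells and 129 to 327 CPM in other cells, so its level did not separate the groups. The B cell list summed to 207 to 352 CPM against 187 to 682 CPM, and the T or NK cell list to 30.6 to 114 CPM against 52.4 to 100.5 CPM. Neutrophil genes summed to 38.8, 48.4, 1047 and 102 CPM, against 309 to 1863 CPM in the other cells, and with sums per animal 3 of 4 were called lower. The part of such cells in the results was not tested.

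The border macrophages, with 3 or more of Mrc1, Cd163, F13a1 and Cbr2, are a second brain population that can carry class II. There were 548 of them (38, 101, 173 and 236 in libraries 1 to 4). Against them the class II high cells were higher in 208 of 8534 genes (2.44%) and lower in 187 (2.19%), again 4.63% in either direction. With library totals alone in place of TMM scaling the split was 167 higher and 248 lower. Leaving out 1 library in turn moved the total from 395 to between 227 and 653. Sums per animal, in 11 animals, called 69 of 3154 genes higher (2.19%) and 67 lower (2.12%), or 4.31% in either direction, with Ciita and Napsa too low to test.

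Some class II machinery genes were higher than in border macrophages, a direction that choosing cells by class II genes favours. Border macrophages had 7.19, 3.35, 3.24 and 1.03 CPM of Ciita (log2 4.82, SE 0.33, edgeR adjusted p = 9.10e-06), 95.9 to 127 CPM of H2-DMb1 (log2 2.17) and 5.03 to 24.2 CPM of H2-Oa (log2 1.96, edgeR adjusted p = 0.00327). With H2-DMa and H2-DMb2 this made 5 of 13 machinery genes higher, and 0 were lower by edgeR or DESeq2 (1 at an unadjusted p under 0.05).

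All 5 testable shared dendritic cell genes were higher than in border macrophages, with Napsa at 0 to 9.06 CPM in the border macrophages (log2 5.82, SE 0.46, edgeR adjusted p = 2.75e-05). Clec9a had no UMI in 6300795 UMIs of border macrophages. Against a floor of 3 UMIs over all of them, its pooled level of 9.83 CPM in the class II high cells was at least 20.7-fold higher. The type 2 genes did not move together. Of 7 tested, 2 were called higher in class II high cells (Mgl2 and Tnip3) and 2 lower (Clec10a and Klf4). Mgl2 had 109 to 394 CPM against 62.1 to 230.1 CPM (log2 1.28, not called without the block). Clec10a and Klf4 had log2 -2.14 and -1.07, the second not called without library 1, 2 or 3 or with sums per animal. Cd209a stayed under 2-fold (log2 0.94), while with sums per animal it was called higher (log2 1.66, edgeR adjusted p = 0.0118). Cd209a had 208, 83.8, 66.0 and 30.4 CPM in border macrophages, overlapping the class II high cells.

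Of 6 monocyte genes 5 were higher than in border macrophages. Ccr2 had 3.59, 70.4, 22.0 and 16.2 CPM there (log2 4.00, SE 0.32, edgeR adjusted p = 2.75e-05). Of 8 border macrophage genes outside the rule 7 were lower, a direction that the choice of both groups by related genes favours. Pf4 had 963 to 1891 CPM in border macrophages against 58.2 to 159.7 CPM (log2 -3.28), the scavenger receptor Stab1 606 to 1208 CPM against 98.3 to 149 CPM (log2 -2.62) and the folate receptor Folr2 121 to 413 CPM against 1.42 to 10.7 CPM (log2 -5.20). Clec12a was the exception and was higher in the class II high cells (log2 1.20, not called without the block). Il1b was again higher (28.8 to 53.6 CPM in border macrophages, log2 3.35), while the monocyte-attracting chemokine Ccl2 was lower (112 to 175 CPM against 303 to 1096 CPM, log2 -1.67).

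Of 10 immediate early genes 0 were called by edgeR or DESeq2, with 2 lower at an unadjusted p under 0.05 and a median log2 of -0.13, and Fos had 1563 to 3781 CPM in border macrophages. Of 13 type I interferon genes 2 were called, with Irf7 at log2 1.29 (not called without library 3 or without the block, where 0 of the 13 were called). P2ry12 had 1114, 330.0, 1258 and 1544 CPM in border macrophages, above the class II high cells of the same library in each case but not called (log2 -0.83, edgeR adjusted p = 0.0877; -1.09 and called without library 4). Of 14 microglia genes 1 was called, Fcrls (lower, log2 -1.62, not called without library 1).

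**Figure D4:**
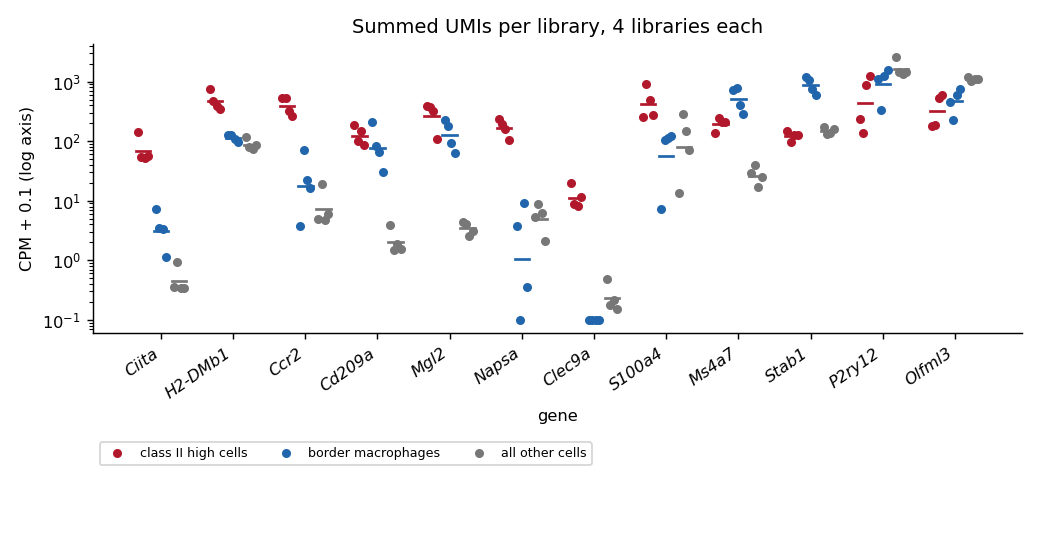
Levels of 12 genes (CPM + 0.1, log axis) in class II high cells (red), border macrophages (blue) and all other cells (grey); a point is 1 of 4 libraries and the bar is the geometric mean. Ciita, Ccr2 and Napsa lie highest in class II high cells in every library, Stab1 lies highest in border macrophages, and Olfml3 lies lower in class II high cells than in the other cells.

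Within the class II high cells, 384 had at least 2 of 6 microglia genes, among them P2ry12, Tmem119 and Sall1, and 51 had fewer. The second group held 0, 28, 18 and 5 cells in libraries 1 to 4, so the comparison rests on libraries 2 to 4, and it follows depth, with median UMIs of 8966, 6539 and 10541 against 6982, 5086 and 5052. Of 6406 genes, leaving out the genes of the split and of the rule, 118 were higher in cells with microglia genes (1.84%) and 63 lower (0.983%), or 2.83% in either direction. The 7 remaining tested microglia genes were higher, a direction that the split by related genes favours (3 without the block, 4 without library 3), such as the chemokine receptor Cx3cr1 (839, 1766 and 1569.7 CPM against 379.8, 296 and 194 CPM, log2 2.08, SE 0.30, edgeR adjusted p = 5.08e-09). Of the dendritic cell genes 4 of 6 shared and 3 of 8 type 2 genes were lower (1 and 2 with DESeq2, 1 and 1 without the block, 1 and 2 without library 3), among them Mgl2 (323, 216 and 97.2 CPM against 688, 1313 and 678 CPM, log2 -2.10, SE 0.30, edgeR adjusted p = 5.91e-09) and Napsa (155, 135 and 92.5 CPM against 431, 409 and 613 CPM, log2 -1.85). The monocyte genes S100a4 and Plac8 were lower as well, S100a4 with 735, 382 and 249 CPM against 1950.4, 1574 and 1743 CPM (log2 -2.03), while the call of Plac8 was lost without the block. Without the block 38 genes were called instead of 181, without library 3 45, without library 4 92 and with DESeq2 77. Microglia gene UMIs were also found in cells picked by genes of other types, as given above. Such UMIs and doublets were not separated from expression here, and their part in the split was not tested.

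To describe the mixture, the 435 cells were clustered on 1500 variable genes, leaving out the 11 genes of the rule. This gave 10 clusters of 17 to 66 cells. Cluster levels describe the cells that were clustered and carry no test. In 3 clusters marker genes of 1 class were at the head, and 7 (302 cells) were left unnamed.

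Cluster 3 (57 cells from 12 animals) was dendritic cell-like. It was led by Cd209a (578 CPM against a mean of 14.1 CPM in the other clusters) and Ccl17 (240.3 CPM). Most Ccl17 UMIs of the class II high cells came from library 3, as given above, which gave 18 of the 57 cells. The cluster also had the highest Ciita level, at 106 CPM. Type 1 genes were in it too, with Xcr1 at 94.5 CPM and Clec9a at 40.3 CPM, while Ms4a7 (2.78 CPM) and Apoe (1556 CPM) were lowest there. Among its 10 leading genes were also Wfdc2 (192 CPM), Cyp2f2 (108 CPM) and Lypd2 (107 CPM), genes known from epithelial cells, each with 0 CPM in the other clusters. Genes of further classes were also found in it and in 0 cells of the other clusters: the NK cell genes Gzma (88.9 CPM), Nkg7 (29.2 CPM) and Ncr1 (15.3 CPM) and the plasmacytoid dendritic cell genes Klk1 (51.4 CPM), Ly6d (50.0 CPM) and Ccr9 (31.9 CPM). All Gzma UMIs came from library 4, which gave 12 of the 57 cells. A cluster level does not show how many cells hold a gene. Cluster 3 took 16.7, 16.6, 12.2 and 9.60% of the class II high cells in libraries 1 to 4.

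Clusters 4 (55 cells) and 9 (21 cells) were microglia-like, with P2ry12 at 2392 and 2589 CPM, above the 1011 CPM pooled over the neutrophil-marked cells, and Sall1, a microglia transcription factor, at 314 and 335 CPM. Of their 76 cells, 73 came from libraries 3 and 4, and in library 4 the animal HTO1 gave 32 and 8. They made up 11.1, 0.690, 21.1 and 33.6% of the class II high cells of libraries 1 to 4, the same order of libraries as that of the summed microglia genes above. Their class II share was low among the clusters, with medians of 1.62% and 0.992%. Cluster 4 held 140 CPM of Ccr2, 263 CPM of Mrc1 and 40.3 CPM of Ciita, at a median depth of 12275 UMIs, and of its 55 cells 29 carried 1 and 15 carried 2 border macrophage genes. Cluster 9 had no Ciita UMI. Of 4557 hashtag doublets, which were left out, 146 met the rule (3.20%), against 1.80% of the kept cells. Doublets of a microglia and another cell with the same hashtag were not separated from microglia with class II, and their part in cluster 4 was not tested.

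Among the unnamed clusters, cluster 1 (66 cells, 11 animals) was led by the chemokines Ccl5 (1607 CPM) and Cxcl1, with Il1b at 1215 CPM and the highest Cd74 of all clusters (24408 CPM). Cluster 2 (66 cells) had Apoe at 27988 CPM and the lysozyme gene Lyz2 at 8777 CPM, and clusters 1 and 2 together had the highest Ccr2 (675 and 629 CPM). Cluster 5 (47 cells) was led by the interferon-induced chemokine Cxcl10 (572 CPM), and had 833 CPM of P2ry12. Cluster 7 (34 cells) had Vcam1, Ccl8 and Pf4 (649.6 CPM), with Mrc1 at 845 CPM, and 17 of its cells carried 2 of the border genes, next to the limit of the rule.

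Cluster 6 (44 cells) was led by Spp1, the secreted protein osteopontin (3740 CPM against a mean of 29.3 CPM in the other clusters), with Fn1, Lpl and Cst7. Of its cells, 29 came from library 2, 23 of them from HTO4, the animal with 7.66% class II high cells. Over all its class II high cells, that animal had only 85.4 CPM of Spp1. The highest levels were in HTO4 of library 4 (7718 CPM, 6 cells in the cluster) and HTO2 of library 2 (2506 CPM, 1 cell). Cluster 8 (28 cells) held the cell cycle genes, with Top2a at 744 CPM, and 14 of its cells came from HTO4 of library 2. Cluster 10 (17 cells) had S100a8 (3439 CPM), S100a9 (4283 CPM) and Plac8 (4897 CPM), and 11 of its cells came from HTO2 of library 3. It mixed neutrophil and monocyte genes with 7745 CPM of Cd74.

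**Figure D5:**
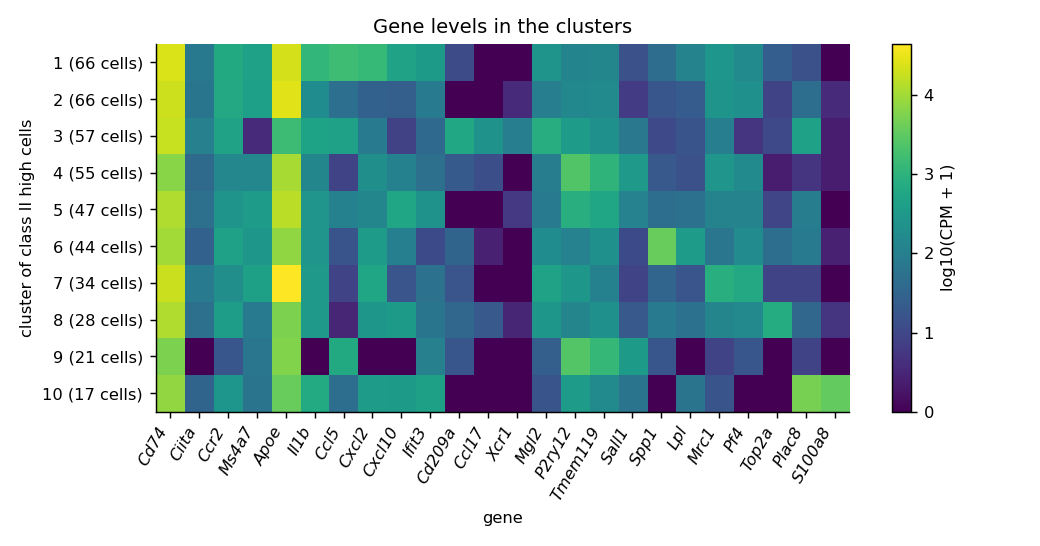
Levels of 24 genes (log10 of CPM + 1, colour) in the 10 clusters of class II high cells (rows, with the number of cells). Cd74 was high in every cluster, while Cd209a and Ccl17 peaked in cluster 3, P2ry12 in clusters 4 and 9, Spp1 in cluster 6 and S100a8 in cluster 10.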

How the data were processed

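The 4 single-cell libraries of CD11b-sorted brain cells with their hashtag libraries were used. The deposited matrices hold unnormalized UMI counts of genes and hashtags in each barcode, made with Cell Ranger (3.0.1 and mm10 per the submitters' processing notes, 4.0.0 per the file headers); the labels' protocols name 10x v2 chemistry. Hashtag doublets were called with HTODemux (Seurat 5.3.0) per library at quantile 0.99 after leaving out hashtags with under 1% of hashtag UMIs. No other doublet caller was run. UMIs were summed per library and group and tested with edgeR 4.0.16 (quasi-likelihood, TMM, filterByExpr, library as block) in R 4.3.3. The block pairs groups of the same library, to which its animals contribute in different shares, so sums per animal with the animal as block were added as an alternative after seeing the data. Sums of fewer than 5 cells were left out, a minimum chosen after seeing the data. The fits were tested on simulated data. Clusters used scanpy 1.11.5 (1500 variable genes, 20 components, Leiden resolution 1), and the rule for naming them was set after seeing the data. Gene lists held markers of myeloid, lymphoid and brain cells and response genes. Named were, of each list, up to 4 tested genes highest in class II high cells and up to 3 called genes with the largest fold change and, of each comparison, the 10 largest called differences in each direction at 50 CPM or more; other genes in the text were chosen after their values were seen. The members and lists were chosen with earlier results of these data known. Alternatives included DESeq2 1.42.0, library totals, other thresholds and leaving out each library.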

Additional observations from a re-analysis of the deposited data

Results flagged for a closer look

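Of 44 measures checked over the 4 libraries, 4 had 1 library far from the other 3, where chance marks about 1 in 20 groups, or 2.2 here. The summed T or NK cell genes in class II high cells stood at 114 CPM in library 4, against 30.6 to 32.3 CPM in the others, with Gzma at 42.9 CPM there and 0 elsewhere. The summed neutrophil genes stood at 1047 CPM in library 3, against 38.8 to 102 CPM. Cluster 1 took 38.9% of the 18 class II high cells of library 1, against 11.7 to 16.3%. Cluster 6 took 20.0% of the class II high cells of library 2, against 4.76 to 5.60%.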

How the results depend on the processing

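The mean share of 1.64% stayed within 1 SD of the libraries under 14 of 15 alternatives (1.36 to 2.11%), and was 0.760% when cells with any of the 4 border macrophage genes were left out. Leaving out 1 library gave 1.44 to 1.93%.

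Against the other cells, 540 genes were called, and 393 to 789 under the alternatives, which include 533 without the replicate block, 632 with DESeq2 and 694 with sums per animal. Against border macrophages, 395 genes were called, 619 with no filter on low counts and 263 with HTODemux on all 4 hashtags, 227 to 653 when 1 library was left out (653 without library 4) 350 without the block and 136 with sums per animal, where 3154 genes in place of 8534 could be tested. Within the class II high cells, 181 genes were called, 38 with no replicate block, 77 with DESeq2, 92 with HTODemux on all 4 hashtags (which leaves out library 4) and 45 to 197 when 1 library was left out. What moved these counts was not tested. Splitting at 1 or more microglia genes left too few cells and was not run. Library totals alone in place of TMM moved the median of all genes from -0.02 to -0.17 (other cells) and from -0.01 to -0.14 (border macrophages), and with it the split of calls from 208 higher and 187 lower to 167 and 248 for border macrophages.

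Of 4494 values of named genes under the alternatives, 295 lost their call, 86 gained one and 5 changed sign: Pf4 against the other cells (-1.36 without cells that carry border genes), and within the class II high cells Cxcl10 (-0.022), Cxcl2 (-0.25) and Ms4a7 (-0.013) with 3 or more microglia genes and Cxcl9 (0.79) with DESeq2.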
